A study of Mus musculus with 63 samples.

Results

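The sodium pump (Na+/K+-ATPase) genes examined here are 6 of the 55291 gene symbols counted: the beta subunits Atp1b1 and Atp1b2 and the FXYD regulators Fxyd1, Fxyd5, Fxyd6 and Fxyd7. They were taken by symbol from the count tables, and all 6 passed the filter on low counts in every comparison. The set was proposed because Fxyd6 showed a large difference between genotypes in its lesion response in CA3, so every CA3 contrast of lesion or genotype, and every difference of Fxyd6 between DG and CA3, is given below as a description without a test. The study asked how transection of the entorhinal input changes gene expression in hippocampal subfields with and without synaptopodin, an actin-associated protein of the spine apparatus, and which mRNAs are pulled down with it.

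Entorhino-hippocampal slice cultures were made at postnatal days 3 to 5 from C57BL/6J mice (Synpo+/+) and from B6.129-Synpotm1Mndl/Dllr mice (Synpo-/-, backcrossed to the same background), of either sex, and matured for at least 18 days. In the regional experiment the dentate gyrus (DG) or the CA3 area was cut out of 1 culture per library. Whether a DG and a CA3 library came from the same culture is not stated, and they were fitted as unpaired. Control cultures gave 4 DG and 2 CA3 libraries from Synpo+/+ and 7 DG and 6 CA3 libraries from Synpo-/-. Cultures with an entorhinal cortex lesion (ECL) gave 7 DG and 3 CA3 libraries from Synpo+/+ and 4 DG and 6 CA3 libraries from Synpo-/-. In the co-immunoprecipitation (Synpo-coIP) experiment 6 cultures were pooled per replicate, synaptopodin was pulled down with an antibody bound to beads, and an aliquot of each precleared lysate was kept as input. It held 5 control and 5 lesioned Synpo+/+ lysates and 2 Synpo-/- lysates, each as input and coIP, and the lesion state of the Synpo-/- lysates is not given in the sources used here. Whether replicate cultures came from separate animals is not stated either, so p-values measure the spread between cultures.

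The Na+/K+-ATPase exports sodium and imports potassium, which sets the gradients for firing, transmitter uptake and potassium clearance. A catalytic alpha subunit does the transport, a heavily glycosylated beta subunit is needed for folding and delivery to the membrane, and a small FXYD protein with a single membrane span can join the complex and tune its affinity for ions. Atp1b2 encodes the glial adhesion molecule AMOG.

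The FXYD genes are named for a short motif shared by their proteins, and the coding stretch around it is shown for these 4 genes. Its bases differ between them, but reads were counted per gene and not by this stretch. Each window of 30 bases was read from the GENCODE M21 transcripts (GRCm38), with the 15 bases that code for the motif in capitals.
Fxyd1: gaaccggatCCATTCACCTACGATtaccac
Fxyd5: gagaacaacCCCTTCTACTACGATgatact
Fxyd6: gaaaaggatCCTTTCTATTACGACtaccag
Fxyd7: gaaacagatCCTTTTTTCTATGACtatgcc
All 4 windows are coding sequence and each crosses an exon junction. They lie in chr7:31053467-31053914 (Fxyd1, minus strand), chr7:31035276-31035407 (Fxyd5, minus strand), chr9:45390651-45390784 (Fxyd6, plus strand) and chr7:31045020-31047394 (Fxyd7, minus strand), introns included. Between pairs of genes, 9 (Fxyd1 and Fxyd7) to 12 (Fxyd1 and Fxyd5, Fxyd5 and Fxyd6) of the 15 motif bases were identical, and 16 to 22 of the 30 bases of the window.

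In the genome, Fxyd5 (ENSMUSG00000009687.14, 31032722 to 31042481), Fxyd7 (ENSMUSG00000036578.7, 31042513 to 31051467) and Fxyd1 (ENSMUSG00000036570.14, 31051678 to 31057199) follow each other on the minus strand of chromosome 7, with 31 bases between Fxyd5 and Fxyd7 and 210 bases between Fxyd7 and Fxyd1. Fxyd6 (ENSMUSG00000066705.7) lies on the plus strand of chromosome 9, from 45370185 to 45396159. Atp1b1 (ENSMUSG00000026576.12) lies on the minus strand of chromosome 1, from 164437109 to 164458355, where 575 of its exon bases are overlapped by Nme7 on the opposite strand. Because the reads were counted without strand, reads from that stretch cannot be assigned to one of the genes. Atp1b2 (ENSMUSG00000041329.13) lies on the minus strand of chromosome 11, from 69599736 to 69605942.

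Total counts were 14055930 to 46043990 in the regional libraries and 11601154 to 53682143 in the Synpo-coIP libraries. Levels are given as CPM (counts scaled to a common library size) with TMM scaling within each experiment, and log2 fold changes come from quasi-likelihood fits in edgeR, whose p-values were adjusted over all genes tested by Benjamini and Hochberg's method. A gene was called at an adjusted p under 0.05. Synpo, the targeted gene, ran against the genotype labels in control tissue. It was 19.1 to 24.5 CPM in DG libraries labelled Synpo+/+ and 41.0 to 69.3 CPM in those labelled Synpo-/-, and 25.8 to 25.9 and 30.5 to 49.2 CPM in CA3. Which exons of Synpo were read cannot be seen from these counts, and Synpo+/+ and Synpo-/- below stand for libraries labelled so. The library of lesioned Synpo+/+ DG replicate 5, the deepest regional library, held 50.5 CPM of summed dentate granule cell markers, within the 45.9 to 135 CPM of the CA3 libraries, where the other DG libraries held 291 CPM or more. Lesion and region results that rest on it are given with and without it. Markers of choroid plexus and ependyma summed to over 100 CPM in 4 lesioned DG libraries (2310 and 6070 CPM in Synpo+/+ replicates 1 and 3, and 8592 and 144 CPM in Synpo-/- replicates 2 and 3) and to at most 61.7 CPM in the control DG libraries. In the Synpo-coIP experiment they exceeded 100 CPM in control Synpo+/+ input replicates 1 and 2 (417 and 108 CPM) and coIP replicate 1 (183 CPM).

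Per length, Atp1b1 and Fxyd1 were the most abundant of the 6 mRNAs in the regional libraries. Levels were divided by the length of all annotated exons and scaled to the same total in each library, as in TPM. On this scale the median over 39 libraries was 568 for Atp1b1, 328 for Fxyd1, 109 for Atp1b2, 85.9 for Fxyd7, 44.1 for Fxyd6 and 13.8 for Fxyd5. Compared within each library, Fxyd1 lay above Atp1b2 and Fxyd6 above Fxyd5 in 39 of 39 libraries, while Atp1b1 lay above Fxyd1 in 30, Atp1b2 above Fxyd7 in 29 and Fxyd7 above Fxyd6 in 35, so the order of these last 3 pairs was not the same in all libraries. The order depended on the length used: with the median length of the coding transcripts in place of all exons, Fxyd1 had the highest median (829, against 423 for Atp1b1), because its exons add up to 2186 bases but its coding transcripts have a median of 539 bases. The plot of CPM in each library shows all values of the regional experiment.

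**Figure D1:**
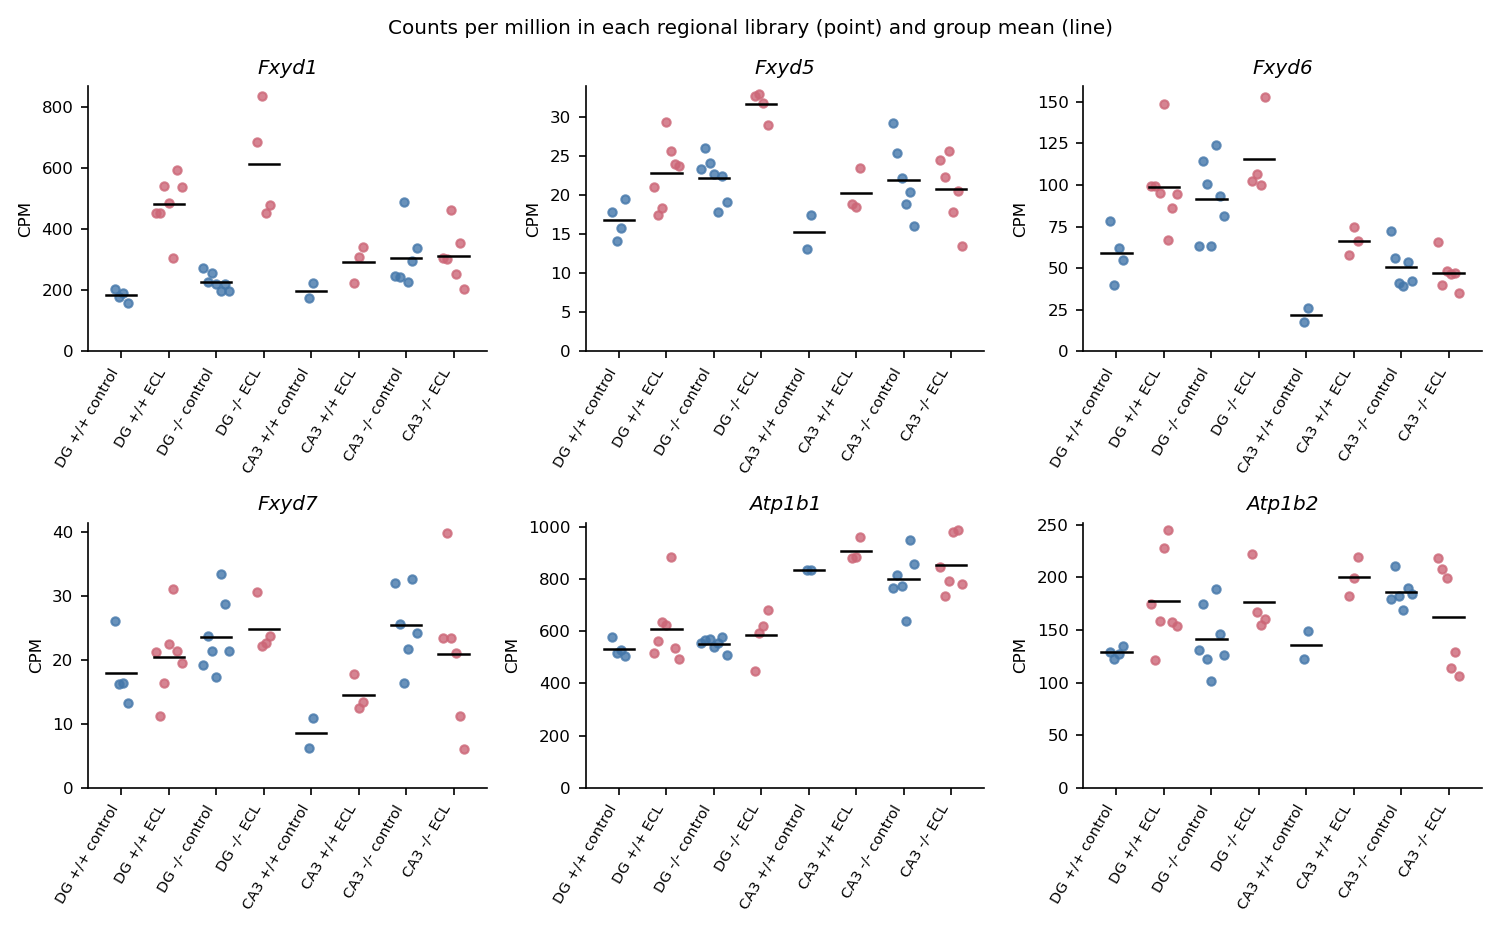
CPM of the 6 genes in each of 39 regional libraries. Points are libraries (blue control, red lesioned), lines are group means, and each panel has its own linear axis from 0. Fxyd1 in DG rose from 156 to 272 CPM in the control libraries to 305 to 834 CPM in the lesioned ones, while Atp1b1 lay higher in CA3 than in DG within each genotype and lesion state, apart from 1 lesioned Synpo+/+ DG library at 885 CPM.

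Fxyd1 was the member with the largest lesion response in the dentate gyrus. It encodes phospholemman, a substrate of protein kinases that restrains the pump until it is phosphorylated. In Synpo+/+ DG its level was 204, 179, 192 and 156 CPM in the 4 control libraries and had a median of 485 CPM in the 7 lesioned ones (lowest 305, highest 592). In Synpo-/- DG it had a median of 221 CPM in the 7 control libraries (lowest 197, highest 272) and was 683, 834, 452 and 480 CPM in the 4 lesioned ones. In both genotypes the groups did not overlap. The log2 fold change was 1.37 (SE 0.168, adjusted p = 0.000236) in Synpo+/+, or 2.59-fold, and 1.38 (SE 0.149, adjusted p = 3.71e-05) in Synpo-/-, or 2.61-fold. Of the 7 lesioned Synpo+/+ libraries, replicate 5, which carried CA3-like markers, was the lowest, and without it the log2 fold change was 1.44 (SE 0.113). The genotype by lesion term, the Synpo-/- response minus that of Synpo+/+, was -0.02 (SE 0.234, adjusted p = 0.969), or -0.11 (SE 0.202, adjusted p = 0.843) without replicate 5.

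Of the 6 members, 2 rose in lesioned Synpo+/+ DG and 2 in lesioned Synpo-/- DG, and none fell. Over all genes tested, 12.2% were called in Synpo+/+ DG and 8.53% in Synpo-/- DG. The median log2 fold change of the members was 0.42 in Synpo+/+ and 0.29 in Synpo-/-, against medians near 0 over all genes (-0.0030 and 0.013).

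Markers of glia moved with Fxyd1. The 10 astrocyte markers summed to 4737 to 5496 CPM in control and 7352 to 9426 CPM in lesioned Synpo+/+ DG, and to 5071 to 5972 and 7793 to 9947 CPM in Synpo-/- DG, and none of them was at 0 in any library. Of these 10 markers, 7 rose in Synpo+/+ and 8 in Synpo-/- DG. Gfap, an intermediate filament gene of reactive astrocytes, rose by a log2 fold change of 1.44 (SE 0.138) and 1.30 (SE 0.121), and the glutamate transporter gene Slc1a2 had 0.23 (adjusted p = 0.145) and 0.12 (adjusted p = 0.48). Microglia markers also rose, 10 of 10 in Synpo+/+ and 8 of 10 in Synpo-/- DG. Their part in the Fxyd1 result was not tested, and in whole tissue pieces more astrocytes and more Fxyd1 mRNA per astrocyte cannot be told apart. Fxyd1 is also known from choroid plexus. Without the libraries over 100 CPM of choroid plexus markers, an alternative chosen after seeing the data, its log2 fold change was 1.35 (SE 0.185, adjusted p = 0.00158) in Synpo+/+ and 1.33 (SE 0.153, adjusted p = 0.00027) in Synpo-/- DG.

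Across the 39 regional libraries the genes whose log2 CPM was most like that of Fxyd1 were S100a1 (Pearson r = 0.91), the astrocytic gap junction gene Gja1 (0.90) and Ggta1 (0.90), among 11508 genes with a mean of at least 5 CPM. The log2 level of Fxyd1 and that of the summed astrocyte markers had r = 0.84 over the 39 libraries, 0.91 over the 22 DG and 0.61 over the 17 CA3 libraries. These points share groups and lesion state, so the values are descriptions. As the plot of Fxyd1 against astrocyte markers shows, the CA3 libraries reached 487 CPM of Fxyd1 at astrocyte sums of 4974 to 8045 CPM, and the ranges of CA3 and lesioned DG overlapped.

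**Figure D2:**
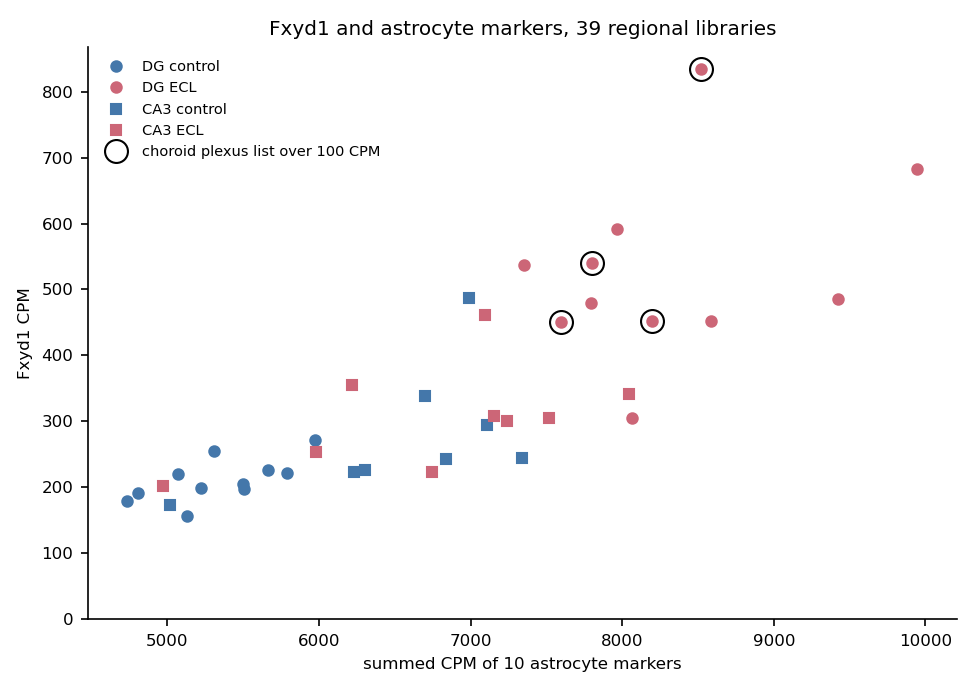
Fxyd1 level (CPM) against the summed level of 10 astrocyte markers (CPM) in 39 regional libraries; circles are DG, squares CA3, blue control and red lesioned, and rings mark the 4 libraries over 100 CPM of choroid plexus markers. All but 1 of the lesioned DG libraries lie above 450 CPM of Fxyd1, and the exception at 305 CPM is the library with CA3-like markers.

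Fxyd6 encodes phosphohippolin, an FXYD protein of neurons. It was higher in DG than in CA3 and rose after the lesion in Synpo+/+ DG. In control Synpo+/+ DG it was 78.6, 40.0, 62.0 and 54.9 CPM, and in lesioned Synpo+/+ DG it had a median of 94.9 CPM (lowest 66.8, highest 149). The 2 groups overlapped, and the log2 fold change was 0.72 (SE 0.196, adjusted p = 0.0308), or 1.64-fold. This call was lost without control replicate 2 (0.56, adjusted p = 0.104), 3 (0.73, adjusted p = 0.0729) or 4 (0.67, adjusted p = 0.0946), without lesioned replicate 4 (0.59, adjusted p = 0.0556), with the gene length trend removed (0.54, adjusted p = 0.0708) and without the choroid plexus libraries (0.72, adjusted p = 0.0609), and it was kept without lesioned replicate 5 (0.78, adjusted p = 0.00497). In Synpo-/- DG it had a median of 93.2 CPM in control (lowest 63.3, highest 124) and was 103, 107, 100 and 153 CPM after the lesion, a log2 fold change of 0.30 (SE 0.172, adjusted p = 0.35). The genotype by lesion term in DG was -0.46 (SE 0.287, adjusted p = 0.504), or -0.53 (SE 0.269, adjusted p = 0.595) without lesioned Synpo+/+ replicate 5. The lesion responses of the genotypes were thus not shown to differ there.

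In CA3, Fxyd6 was selected on its values, which follow as a description. It was 17.7 and 26.3 CPM in the 2 control Synpo+/+ libraries and 57.7, 74.9 and 66.3 CPM in the 3 lesioned ones. In Synpo-/- CA3 it had a median of 47.9 CPM in 6 control libraries (lowest 39, highest 72.3) and of 46.9 CPM in 6 lesioned ones (lowest 35.3, highest 65.8). The Synpo+/+ control libraries were thus the lowest of the 17 CA3 libraries, and the other 3 groups overlapped. The log2 fold change with lesion was 1.49 (SE 0.185) in Synpo+/+ and -0.10 (SE 0.148) in Synpo-/-, and their difference was -1.62 (SE 0.304). Leaving out each of the 17 libraries in turn gave differences from -1.92 to -1.36, where leaving out a control Synpo+/+ library left that group with a lone sample whose spread was taken from the other groups.

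Because the size of this contrast chose Fxyd6, the place of the other members below it is no result. The Synpo-/- minus Synpo+/+ lesion response was -0.96 (SE 0.558) for Fxyd7, -0.68 (SE 0.285) for Atp1b2, -0.44 (SE 0.352) for Fxyd1, -0.42 (SE 0.299) for Fxyd5 and 0.06 (SE 0.178) for Atp1b1. The log2 fold change of Fxyd1 with lesion in CA3 was 0.45 (SE 0.176) in Synpo+/+ and 0.04 (SE 0.188) in Synpo-/-, beside 1.37 and 1.38 in DG; the difference between regions was not tested. Fxyd7 was 6.19 and 11 CPM in control Synpo+/+ CA3 and had a median of 25.0 CPM in control Synpo-/- CA3 (lowest 16.4, highest 32.8), and these groups did not overlap. The astrocyte markers in the 2 control Synpo+/+ CA3 libraries summed to 5018 and 6229 CPM, below the 6300 to 7338 CPM of control Synpo-/- CA3. The neuron markers summed to 7057 and 7552 CPM, below the 7795 to 9669 CPM of control Synpo-/- CA3. The sums of microglia and of oligodendrocyte markers overlapped between these groups. The part of any of these lists in these differences was not tested.

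**Figure D3:**
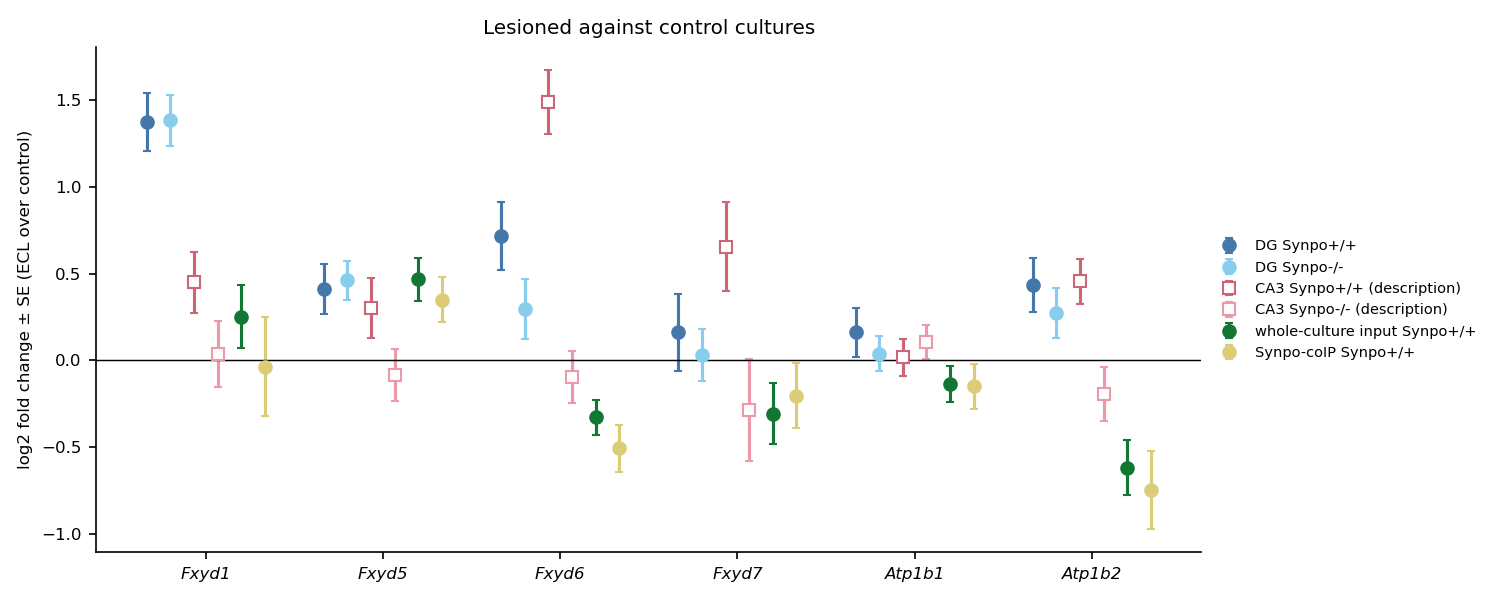
Log2 fold change of lesioned over control cultures (± SE from the fit) for the 6 genes, with filled circles for DG, whole-culture input and Synpo-coIP and open squares for the CA3 values given as a description. Fxyd1 stands at 1.37 and 1.38 in DG, and Fxyd6 at 1.49 in Synpo+/+ CA3 but at -0.10 in Synpo-/- CA3.

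Fxyd5 encodes dysadherin, an FXYD protein known for weakening cell adhesion. In Synpo-/- DG it had a median of 22.6 CPM in control (lowest 17.8, highest 26.0) and was 32.6, 32.9, 31.8 and 29.0 CPM after the lesion, without overlap. The log2 fold change was 0.46 (SE 0.113, adjusted p = 0.0172), or 1.38-fold, and 0.45 (adjusted p = 0.0571) without lesioned replicate 1. Without the choroid plexus libraries it was 0.45 (adjusted p = 0.153). In Synpo+/+ DG it was 17.8, 14.0, 15.7 and 19.5 CPM in control and had a median of 23.7 CPM after the lesion (lowest 17.4, highest 29.2), a log2 fold change of 0.41 (SE 0.146, adjusted p = 0.0715) that did not pass. Without lesioned replicate 5 it was 0.37 (adjusted p = 0.0809), and without lesioned replicate 2 it was 0.43 (adjusted p = 0.049) and passed. The genotype by lesion term was 0.01 (SE 0.191, adjusted p = 0.98), or 0.04 (SE 0.19, adjusted p = 0.949) without lesioned Synpo+/+ replicate 5. The genes most like Fxyd5 over the 39 libraries were Pmp22 (r = 0.88), Sat1 (0.86) and the lysosomal macrophage gene Cd68 (0.86), and microglia markers rose in the same libraries, as given above.

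Fxyd7, a brain-specific FXYD gene, and the beta subunits were not called for lesion in DG. Fxyd7 had log2 fold changes of 0.16 (SE 0.22) in Synpo+/+ and 0.03 (SE 0.151) in Synpo-/- DG. Atp1b1, the widely expressed beta subunit, had 0.16 (SE 0.141) and 0.04 (SE 0.103). Atp1b2 was 129, 122, 128 and 135 CPM in control Synpo+/+ DG with a median of 159 CPM after the lesion (lowest 122, highest 245), a log2 fold change of 0.43 (SE 0.156, adjusted p = 0.0742), and it had 0.27 (SE 0.144, adjusted p = 0.292) in Synpo-/- DG. Without lesioned replicate 5 the Synpo+/+ values were 0.02 for Fxyd7, 0.04 for Atp1b1 and 0.33 (adjusted p = 0.0882) for Atp1b2, and without lesioned replicate 2 Atp1b2 passed with 0.47 (adjusted p = 0.0328).

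None of the 6 genes was called between genotypes in DG, in comparisons that reuse the DG libraries of the lesion comparisons. By edgeR 0 members were called in control DG (3 at an unadjusted p under 0.05, 0 by DESeq2). There 0.0166% of all genes were called, and 3746 of 24143 had an unadjusted p under 0.05. In lesioned DG 0 were called (1 unadjusted, 0 by DESeq2) against 0.0166% of all genes, with 859 of 24100 genes unadjusted. For the genotype by lesion term 0 were called (0 unadjusted, 0 by DESeq2) against 0.00381%, with 2730 of 26245 genes unadjusted. Without Synpo+/+ replicate 5, Fxyd5 (0.48, unadjusted p = 0.00142) and Fxyd7 (0.38, unadjusted p = 0.0306) had an unadjusted p under 0.05 in lesioned DG, and neither was called. With it they had 0.45 (unadjusted p = 0.0032) and 0.25 (unadjusted p = 0.214). In control DG the largest difference between genotypes was that of Fxyd6, 0.60 (SE 0.188, adjusted p = 0.215), higher in the libraries labelled Synpo-/-, in which Synpo was higher too.

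Between the regions, Fxyd6 lay higher in DG and Atp1b1 higher in CA3. The comparisons share their DG and CA3 libraries with the lesion comparisons, and the CA3 libraries are those on which Fxyd6 was selected, so its region values in both genotypes are not independent of that choice and are a description. Among control cultures, the DG minus CA3 log2 difference of Fxyd6 was 1.44 (SE 0.238) in Synpo+/+ and 0.95 (SE 0.158) in Synpo-/-. In lesioned cultures it was 0.64 (SE 0.191) in Synpo+/+, or 0.69 (SE 0.145) without DG replicate 5, and 1.31 (SE 0.156) in Synpo-/-, with every Synpo-/- DG library (100 to 153 CPM) above every CA3 library (35.3 to 65.8 CPM). The genes most like Fxyd6 over the 39 libraries were Arl4c (r = 0.91), Ptma (0.90) and Id2 (0.88).

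Atp1b1 ran the other way. It was 834 and 835 CPM in control Synpo+/+ CA3 and 577, 518, 528 and 507 CPM in control Synpo+/+ DG, and the DG minus CA3 log2 difference was -0.63 (SE 0.129, adjusted p = 0.00858). In Synpo-/- controls it had a median of 795 CPM in CA3 (lowest 638, highest 950) and of 556 CPM in DG (lowest 510, highest 577), a difference of -0.42 (SE 0.0744, adjusted p = 0.000272). In lesioned Synpo-/- cultures the difference was -0.54 (SE 0.137, adjusted p = 0.0163), and the groups did not overlap in any of these 3 comparisons. The Synpo+/+ control call was lost without either of the 2 CA3 libraries (-0.63, adjusted p = 0.0661, without replicate 1 and -0.64, adjusted p = 0.0705, without replicate 2). The lesioned Synpo-/- call was lost without DG replicate 1 (-0.42, adjusted p = 0.0588). Some marker lists differed in the same direction and others in the opposite one. In control Synpo-/- cultures the neuron markers summed to 3983 to 5932 CPM in DG and 7795 to 9669 CPM in CA3, with 5 of 10 called lower in DG. The oligodendrocyte markers summed to 553 to 1659 CPM in DG and 1960 to 3161 CPM in CA3, with 10 of 10 called lower in DG. Of the interneuron markers 5 of 8, and of the dentate granule cell markers 6 of 6, were called higher in DG. The part of any of these lists in the Atp1b1 result was not tested. Dlat, a mitochondrial pyruvate dehydrogenase gene, had r = 0.97 with Atp1b1, as did Itfg1 (0.97), and Ola1 had 0.96.

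Over all genes tested, 5.39% were called between regions in Synpo+/+ controls, 25.5% in Synpo-/- controls and 13.6% in lesioned Synpo-/- cultures. Fxyd6 is left out of the calls named here, because the CA3 libraries chose it. Besides Atp1b1, Fxyd7 was called in Synpo+/+ controls, higher in DG by 1.08 (SE 0.279, adjusted p = 0.0358). Atp1b2 was called in Synpo-/- controls, lower in DG by -0.30 (SE 0.105, adjusted p = 0.045). In Synpo-/- controls Fxyd7 had -0.0064 (SE 0.15, adjusted p = 0.98). In lesioned cultures Fxyd7 had 0.56 (SE 0.228, adjusted p = 0.194) in Synpo+/+, or 0.42 (adjusted p = 0.144) without DG replicate 5, and 0.27 (SE 0.338, adjusted p = 0.707) in Synpo-/-. The Fxyd7 call was lost without CA3 replicate 1 (0.74, adjusted p = 0.254), DG replicate 1 (0.86, adjusted p = 0.0816) or DG replicate 3 (1.14, adjusted p = 0.0623), and the Atp1b2 call without any of 11 of the 13 libraries. In lesioned Synpo-/- cultures Fxyd1 was higher in DG by 0.98 (SE 0.207, adjusted p = 0.0047) and Fxyd5 by 0.62 (SE 0.144, adjusted p = 0.00875). In the same comparison 7 of 10 astrocyte and 6 of 10 microglia markers were called higher in DG, with sums of 7793 to 9947 CPM in DG and 4974 to 7519 CPM in CA3 for astrocytes and of 1145 to 1590 and 632 to 1099 CPM for microglia, and their part was not tested. Without the choroid plexus libraries the calls of Fxyd5 (0.57, adjusted p = 0.136) and Atp1b1 (-0.60, adjusted p = 0.116) were lost. In lesioned Synpo+/+ cultures 0 members were called by edgeR (4 at an unadjusted p under 0.05, 3 by DESeq2). There 2.05% of all genes were called, and 4698 of 24029 had an unadjusted p under 0.05. Fxyd6 is among the members counted there, so nothing is read from these counts. With DG replicate 5, Fxyd1 had 0.80 (SE 0.197, adjusted p = 0.0508) and Atp1b1 -0.52 (SE 0.146, adjusted p = 0.0769). Without it, and with Fxyd6 left aside, Fxyd1 (0.86, adjusted p = 0.000196) and Atp1b1 (-0.65, adjusted p = 0.000183) passed.

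**Figure D4:**
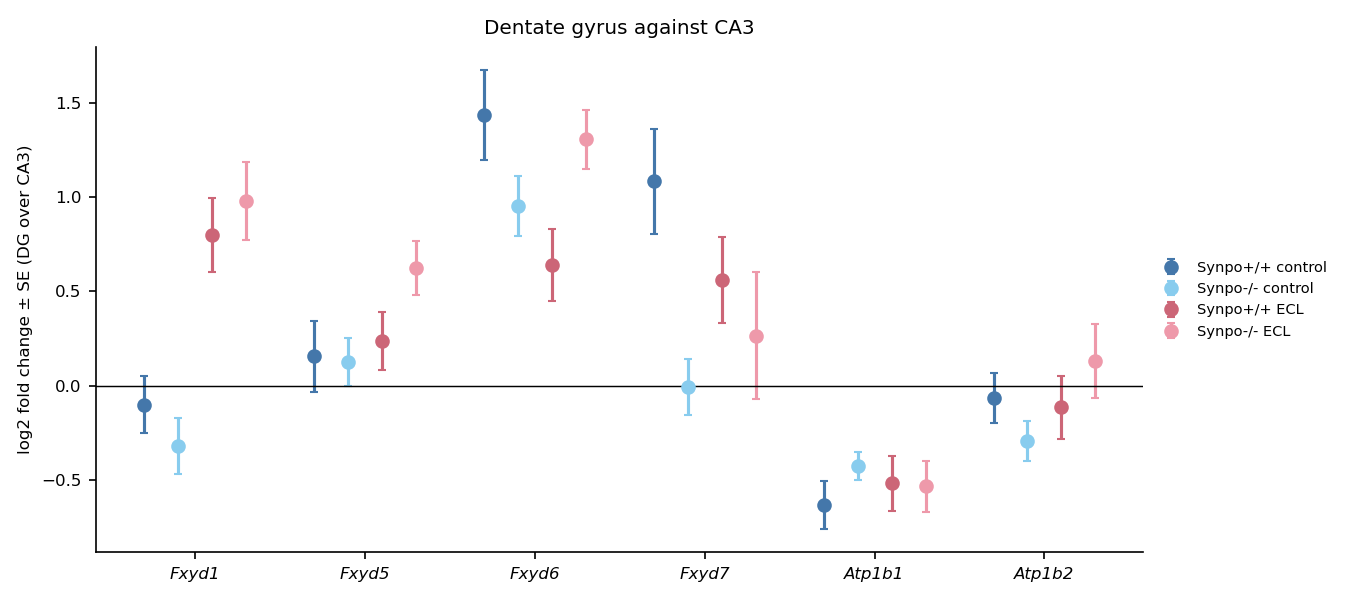
Log2 fold change of DG over CA3 (± SE from the fit) for the 6 genes in control and lesioned (ECL) cultures of each genotype. Fxyd6 lies above 0 in all 4 conditions (0.64 to 1.44), and Atp1b1 lies below 0 in all 4 (-0.63 to -0.42).

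In the pull-down, the mRNAs of the 4 FXYD members were lower in the coIP than in the input of every Synpo+/+ lysate. Input and coIP libraries with the same number were taken to be of the same lysate. Fxyd6 was 175, 179, 170, 175 and 189 CPM in the 5 control Synpo+/+ inputs and 109, 116, 99.1, 126 and 123 CPM in the coIP of the same lysates. It was lower in the coIP of all 5 lysates, at 0.583 to 0.722 of the input, with a log2 fold change of -0.61 (SE 0.0836, adjusted p = 2.58e-05). Fxyd7 was 7.26, 12.1, 11.3, 13.7 and 13.2 CPM in the inputs and 4.26, 4.97, 4.62, 7.25 and 4.89 CPM in the coIP, a log2 fold change of -1.13 (SE 0.192, adjusted p = 0.00018). Fxyd5 had -0.60 (SE 0.14, adjusted p = 0.00231), and Fxyd1 -0.40 (SE 0.179, adjusted p = 0.0734). Of the 6 members, 3 were called here, against 55.0% of all genes. With the lysate as a block 11393 genes were called in place of 10031, among them all 6 members. The 4 FXYD genes were lower in the coIP (Fxyd1 at -0.43, adjusted p = 0.00086). Atp1b1 (0.27, adjusted p = 0.00356) and Atp1b2 (0.33, adjusted p = 0.00177) were higher.

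In the lesioned Synpo+/+ lysates 4 members were called, against 58.3% of all genes, and all 4 were lower in the coIP. The log2 fold changes were -1.05 (SE 0.163, adjusted p = 9.49e-05) for Fxyd7, -0.81 (SE 0.145, adjusted p = 0.000287) for Fxyd6, -0.73 (SE 0.117, adjusted p = 0.000118) for Fxyd5 and -0.71 (SE 0.292, adjusted p = 0.0499) for Fxyd1. The Fxyd1 call was lost without any of 7 of the 10 libraries (-0.47, adjusted p = 0.157, without input replicate 5), with DESeq2 (adjusted p = 0.107) and with the length trend removed (-0.24, adjusted p = 0.447). With the lysate as a block the beta subunits passed too, Atp1b1 with 0.22 (adjusted p = 0.0467) and Atp1b2 with 0.21 (adjusted p = 0.0428).

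The libraries labelled Synpo-/- showed the same direction for Fxyd6 and Fxyd7. Fxyd6 was 184 and 173 CPM in the inputs and 111 and 129 CPM in the coIP (log2 fold change -0.61, SE 0.135, adjusted p = 0.00549), and Fxyd7 was 15.6 and 15.3 CPM and 7.13 and 6.03 CPM (-1.27, SE 0.191, adjusted p = 0.000642). Atp1b1 was 561 and 532 CPM in the inputs and 879 and 886 CPM in the coIP (0.66, SE 0.13, adjusted p = 0.00276). Fxyd5, called lower in both Synpo+/+ sets, had -0.18 (SE 0.201, adjusted p = 0.513), with coIP to input ratios of 0.694 and 1.14 in the 2 lysates. In all, 3 members were called, against 31.4% of all genes. The genotype by fraction term called 0 members by edgeR (0 at an unadjusted p under 0.05; 0 by DESeq2), where 0% of all genes were called, and it was 0.46 (SE 0.262) for Fxyd5, 0.05 (SE 0.154) for Fxyd6, -0.09 (SE 0.318) for Fxyd7 and 0.45 (SE 0.229) for Atp1b1. The lesion by fraction term likewise called 0 members (0 unadjusted; 0 by DESeq2) and 0% of all genes.

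Some of these values changed when the length trend of each library was removed. Fxyd7, whose exons add up to 693 bases, had -0.39 (adjusted p = 0.138) in control and -0.20 (adjusted p = 0.456) in lesioned Synpo+/+ lysates and was no longer called, and with the lysate block added it had -0.36 (adjusted p = 0.0524) and -0.18 (adjusted p = 0.387). In Synpo-/- it kept its call (-0.85, adjusted p = 0.00453). Fxyd6 had -0.56, -0.70 and -0.54 with that trend removed and Fxyd5 -0.55 and -0.64 in Synpo+/+, all called, but the trend used the exon lengths of 4107 and 4192 bases, where the coding transcripts have medians of 1788.5 and 817 bases. Atp1b1 then had 0.48 (adjusted p = 0.00804), 0.51 (adjusted p = 0.000186) and 0.80 (adjusted p = 0.000885), all higher in the coIP.

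**Figure D5:**
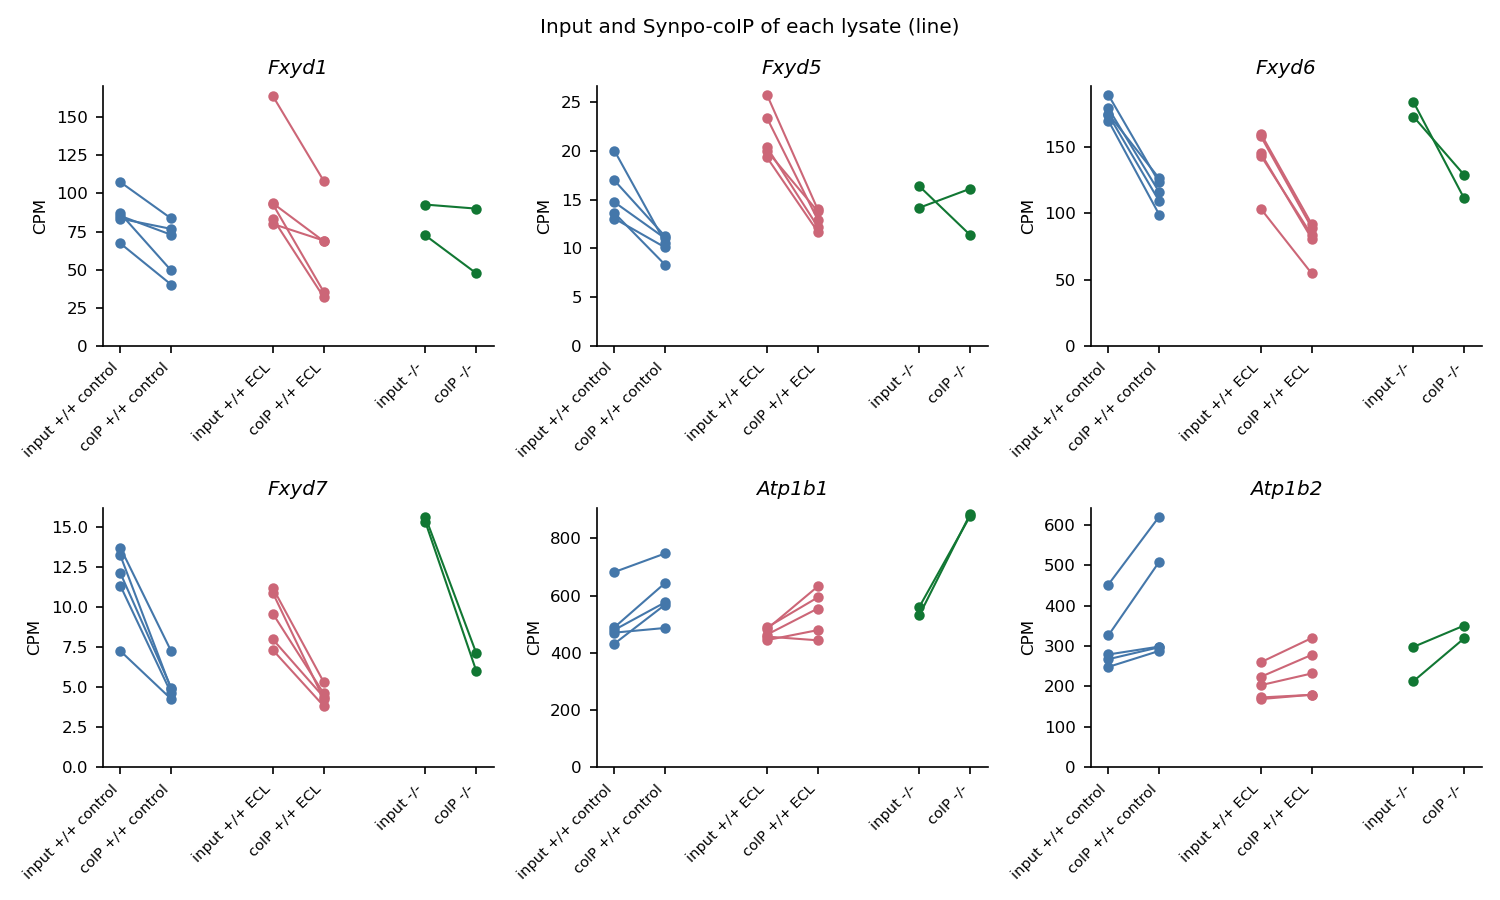
CPM of the 6 genes in the input and the Synpo-coIP of each lysate (matched by number, joined by a line) for control and lesioned Synpo+/+ and for Synpo-/- lysates. Each panel has its own linear axis from 0. Fxyd6 and Fxyd7 fell along every line, Atp1b2 rose along every line, and Atp1b1 rose along all but 1.

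The lesion comparison of the whole-culture inputs moved 2 members, against 5.61% of all genes. Fxyd5 was 20.05, 17.0, 13.1, 14.8 and 13.6 CPM in control and 23.4, 25.8, 19.4, 20.4 and 20.03 CPM in lesioned inputs, which overlapped narrowly, with a log2 fold change of 0.47 (SE 0.126, adjusted p = 0.0448). Atp1b2 was 248, 452, 267, 326 and 279 CPM in control and 224, 169, 203, 173 and 260 CPM in lesioned inputs, also with overlap, and it fell by 0.62 on the log2 scale (SE 0.159, adjusted p = 0.0368). Both calls were fragile: leaving out 1 library at a time, the Fxyd5 call was lost without any of 9 libraries and the Atp1b2 call without any of 6. Fxyd6 was not called, but its groups did not overlap, with 170 to 189 CPM in control and 103 to 160 CPM in lesioned inputs. Its log2 fold change was -0.33 (SE 0.102, adjusted p = 0.0764), opposite in sign to its changes in Synpo+/+ DG and CA3. Fxyd1 had 0.25 (SE 0.183, adjusted p = 0.499) in the inputs. Of the 10 astrocyte markers 1 was called higher there, and their sums overlapped (19129 to 27343 CPM in control and 24076 to 36245 CPM in lesioned inputs). Of the neuron markers 4 of 10 were called lower and 0 higher, and of the microglia markers 4 of 10 higher and 0 lower. The part of any of these lists in the input values was not tested. In the coIP samples 0.314% of all genes were called for lesion by edgeR, and 2252 of 18449 had an unadjusted p under 0.05. Of the members 0 were called there (3 at an unadjusted p under 0.05, 1 by DESeq2). The 3 were Fxyd6 (-0.51, SE 0.135, adjusted p = 0.143), Atp1b2 (-0.75, SE 0.226, adjusted p = 0.202) and Fxyd5 (0.35, SE 0.132, adjusted p = 0.304).

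Other pump genes were described from a list of 22, of which 17 to 21 were tested in each comparison, and those named here are part of those called. In Synpo+/+ DG the lesion raised Fxyd1, Fxyd6 and Nkain4 (0.50, SE 0.107), which encodes a protein that interacts with the pump. In Synpo-/- DG it raised Fxyd1, Fxyd5 and the beta subunit gene Atp1b3 (0.36, SE 0.0883, adjusted p = 0.0177). Between regions in Synpo-/- controls, Fxyd2 (0.62, SE 0.145) and Nkain2 (0.69, SE 0.103) were higher and Nkain3 (-0.66, SE 0.109) and Nkain4 (-0.38, SE 0.0926) lower in DG. In the coIP of control Synpo+/+ lysates, Fxyd2, the FXYD gene best known from kidney, had -1.38 (SE 0.219, adjusted p = 9.55e-05) and Nkain4 -0.57 (SE 0.11, adjusted p = 0.000501), both lower than in the input, while Nkain1 was higher (0.75, SE 0.304, adjusted p = 0.0485). In lesioned Synpo+/+ lysates Fxyd2 had -1.64 (SE 0.273, adjusted p = 0.000166) and Nkain4 -0.86 (SE 0.155, adjusted p = 0.000315). In Synpo-/- lysates Fxyd2 had -0.79 (SE 0.367, adjusted p = 0.119) and Nkain4 -0.15 (SE 0.143, adjusted p = 0.465), neither called, and Atp1b3 was higher in the coIP (0.48, SE 0.144, adjusted p = 0.0239).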

How the data were processed

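RNA was sequenced from 39 regional and 24 Synpo-coIP libraries. Per the labels and methods, the authors trimmed reads with cutadapt 3.5, aligned them with STAR 2.7.8a and counted them per gene with featureCounts 2.0.1, and they deposited raw counts per gene, unstranded. The counts were tested with edgeR 4.0.16 (limma 3.58.1, R 4.3.3): TMM scaling, filterByExpr, quasi-likelihood fits of the groups compared and Benjamini-Hochberg adjustment over all genes tested, with a threshold of 0.05. CPM used TMM library sizes within each experiment. Alternatives were DESeq2 1.42.0, no filter, removal of per-library trends on gene length and GC, a replicate block, leaving out each library, and, chosen after seeing the data, leaving out libraries over 100 CPM of choroid plexus markers. Positions and exon lengths came from the deposited GENCODE M25 annotation and the coding windows from GENCODE M21 transcripts, both on GRCm38. The fits were tested on simulated data. Per the methods, input was an aliquot of the lysate used for the coIP. That input and coIP libraries with the same number share a lysate was assumed. Their deviations correlated at 0.294 to 0.668 (control) and 0.137 to 0.715 (lesioned) in Synpo+/+ and at 0.0894 in Synpo-/-. In lesioned Synpo+/+ replicates 1 and 3 another number correlated more highly. The members, gene lists and tests were chosen with earlier results of these data known. The text names the 6 members in each comparison, the 3 genes most like each by Pearson r, and called genes of the pump list, some of which are not reported here. Fxyd6 was fitted between regions with the other genes, but no p is given for it there because the CA3 libraries chose it.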

Additional observations from a re-analysis of the deposited data

Results flagged for a closer look

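In 6 of 60 pairs of a gene and a group of 4 to 10 libraries, 1 library stood apart by Dixon's criterion, which chance meets in about 1 in 20 groups. Atp1b1 in lesioned Synpo+/+ DG was highest in replicate 5, at 885 CPM, the library with CA3-like markers, with the others at 493 to 635 CPM. Atp1b1 in control Synpo+/+ inputs was highest in replicate 1 (683 CPM, others 432 to 489). Fxyd1 in lesioned Synpo+/+ inputs was highest in replicate 5 (164 CPM, others 80.0 to 93.6). Fxyd6 was highest in replicate 4 of lesioned Synpo-/- DG (153 CPM, others 100 to 107) and in replicate 4 of lesioned Synpo+/+ DG (149 CPM, others 66.8 to 99.5). Fxyd7 in control Synpo+/+ coIP was highest in replicate 4 (7.25 CPM, others 4.26 to 4.97).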

How the results depend on the processing

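Of 129 alternatives to 21 results, apart from leaving out single libraries, 114 kept the result and 15 moved it. For counts of members called, kept means equal or within 1.5 times. A count that stayed at 0 is thus kept, and which members were called was not compared. For CA3, it means that the Fxyd6 log2 difference moved by less than the pooled standard deviation of its log2 CPM within groups. No member reversed its direction where it was called. Counts of members between regions in this section include Fxyd6, so nothing is read from their size. With the length trend removed, 1 member was called for lesion in Synpo+/+ DG (2 in the edgeR fit), with 2321 genes in place of 2886. Between regions in lesioned Synpo+/+ cultures 2 were called (0 in the edgeR fit), with 729 genes in place of 492. In that last comparison DESeq2 called 3 and the unfiltered fit 2, with 1360 and 1190 genes called in place of 492, and for lesion in the coIP samples both called 1 in place of 0, with 357 and 239 genes in place of 58. Without the choroid plexus libraries 1 was called for lesion in Synpo+/+ DG (2033 genes in place of 2886). In Synpo-/- DG 1 was called for lesion (846 genes in place of 1989). Between regions in lesioned Synpo-/- cultures the count was 2 in place of 4 (1242 genes in place of 3098). In the coIP of control Synpo+/+ lysates it was 5 in place of 3 (8684 genes in place of 10031). For lesion in the inputs it was 1 in place of 2 (283 genes in place of 1007). The cause of these changes was not tested.

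Input and coIP of the same number were taken to share a lysate. With the replicate block 6 members were called in control Synpo+/+ lysates (3 without it), with 11393 genes called in place of 10031. In the other comparisons nothing given here says whether same-numbered libraries belong together, and not all same-numbered pairs correlated above 0.1. Between regions in Synpo-/- controls such pairs of DG and CA3 correlated at 0.0306 to 0.461. In these other comparisons the replicate block gave 1 member for lesion in Synpo-/- DG (662 genes). It gave 3 between regions in lesioned Synpo+/+ cultures (4999 genes) and 1 for lesion in the inputs (673 genes).

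Leaving out 1 library at a time gave 1 to 4 members for lesion in Synpo+/+ DG (4 without lesioned replicate 2, which added Fxyd5 and Atp1b2), 1 to 2 in Synpo-/- DG, 1 to 3 between regions in Synpo+/+ controls, 0 to 3 in lesioned Synpo+/+ cultures and 0 to 2 for lesion in the inputs. The Fxyd6 log2 fold change with lesion in Synpo+/+ CA3 was 1.27 to 1.84. With 2 control Synpo+/+ CA3 libraries and 2 Synpo-/- lysates, values of these groups rest on few cultures.
Under the length trend setting the all-gene median shifted on the log2 scale by -0.14 for lesion in Synpo+/+ DG, 0.15 for the genotype by lesion term in DG, -0.13 for lesion in Synpo+/+ CA3 and 0.17 for the CA3 difference.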

Other observations

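The genes most like the remaining members over the 39 regional libraries, by Pearson r of log2 CPM, were Serpinf1 (0.82), Rhno1 (0.77) and Rcan1 (0.76) for Fxyd7 and Ppp5c (0.91), Shisa5 (0.90) and Cyb5r3 (0.89) for Atp1b2. These are descriptions, since the libraries share regions, genotypes and lesion states.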
